A study of Homo sapiens with 18 samples.

Results

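The regions described here are those that stand alone in a ChIP-seq count table of RNA polymerase II (Pol II) carrying a phosphate on serine 5. A region was taken as isolated when its start on chromosomes 1 to 22 lay more than 250000 bases from the start of every other region of the same chromosome. This held for 935 regions, or 7.91% of the 11827 regions on those chromosomes, and the whole table holds 12123 regions. The rule used position only, and no count. The cells were Rh30, an alveolar rhabdomyosarcoma line, in which the fusion transcription factor PAX3-FOXO1 carries an FKBP tag. All 3 groups came from this tagged line: cells given DMSO, the solvent, and cells given 500 nM dTAG47 for 2 h or for 4 h, with 2 libraries in each group, A and B. dTAG47 is a small molecule that directs an FKBP-tagged protein to degradation. Whether the line is 1 clone, and whether a group's libraries are from separate cultures, is not said in the labels. The p-values thus set differences between groups only against the spread of these libraries, which may be technical. The 12 samples of the series made with other antibodies were not analysed here.

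The C-terminal domain of Pol II is a tail of repeats whose serines are phosphorylated in turn during transcription. Phosphorylation of serine 5 is placed at initiation and is known mostly from the start sites of genes, where Pol II pauses before it is released into the gene body, and it is also found at active enhancers. PAX3-FOXO1 joins the DNA-binding part of PAX3 to the activation domain of FOXO1, binds mostly at enhancers in this tumour, and keeps a muscle-lineage program active. Active genes are clustered along chromosomes, so that a start site with no other within a long stretch is found mostly in gene-poor parts of the genome. Positions are given in hg19 as deposited, each region with an end 400 above its start. Regions were tied to no gene, promoter or repeat, since none was used here in that build, and the cell type was not checked against marker genes for the same reason.

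Isolated regions were spread over all 22 chromosomes and were unevenly frequent among them. They made up 19.6% of the regions on chromosome 18, 17.5% on chromosome 13 and 16.3% on chromosome 8, against 0.772% on chromosome 19, 2.39% on chromosome 17 and 3.32% on chromosome 16. The largest number, 94, lay on chromosome 2, and 6 lay on chromosome 19. The median distance from an isolated region to its nearest neighbour was 410277 bases, against 31991 bases for the other regions. Of the isolated regions, 608 had another isolated region as a direct neighbour, 158 had one on both sides, and 98 had no region within 1000000 bases. The loneliest, chr13:67804787-67805187, was 5496719 bases from the next start. Its levels were 54.5 and 46.5 CPM in DMSO (library A, then B, as in all such pairs of values), 55.9 and 44.1 at 2 h, and 47.3 and 63.9 at 4 h, where CPM are counts per 1000000 scaled by TMM, a trimmed mean that sets the libraries to a common level. The groups overlapped. The next, chr4:135122538-135122938 and chr4:62065961-62066361, were 4814264 and 4089662 bases from a neighbour, and neither was called at any time. At the edge of the rule, the 3 regions just inside lay 250242, 250288 and 250330 bases from a neighbour, at chr8:17354468-17354868, chr1:192778024-192778424 and chr2:101618666-101619066, with log2 fold changes of -0.27, 0.46 and 0.34 at 2 h. The 3 just outside lay at 249956, 248952 and 248349 bases, at chr6:53659524-53659924, chr3:14693070-14693470 and chr15:57598444-57598844, with -0.22, -0.16 and -0.08.

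Isolated regions had lower Ser5 Pol II counts than the others. The median of the DMSO levels was 49.0 CPM over the isolated regions and 65.9 CPM over the others, 1.34-fold higher. All regions have the same width, so no scaling by length was needed. Counts were not corrected for an input library, copy number or how well reads map. The cause of the difference in level was not tested. The difference stood in each of the 6 libraries. In counts, the medians over isolated regions were 91 and 70 for the DMSO libraries, 68 and 61 for those of 2 h, and 76 and 44 for those of 4 h, against 123 and 95, 96 and 87, and 106 and 62 over the others. A mean of under 50 counts over the 6 libraries was found for 29.0% of isolated and 13.0% of other regions. All 935 passed the filter on low counts, which removed 0 regions of the table. Total counts per library ran from 962251 in 4 h library B to 1792013 in DMSO library A.

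**Figure D1:**
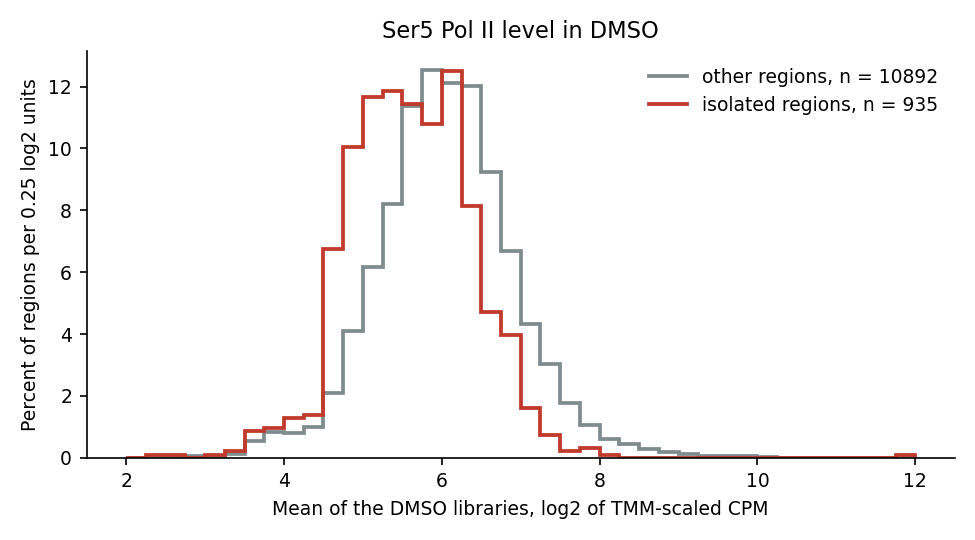
Distribution of Ser5 Pol II levels in DMSO, as the log2 of the mean TMM-scaled CPM of both DMSO libraries (x axis) against the percent of regions in each step (y axis), for 935 isolated (red) and 10892 other regions (grey), of which 2 lie beyond the right edge. The isolated regions lie to the left, with medians of 49.0 against 65.9 CPM, and 1 isolated region stands alone far to the right.

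That single high member was chr6:58779007-58779407, with 2779 and 4262 CPM in DMSO, 4511 and 5751 at 2 h, and 4478 and 7239 at 4 h. It is the third highest region of the whole table, and all 4 treated libraries lay above both DMSO libraries. Its raw counts were 5147 and 6228 in DMSO, 6460 and 7566 at 2 h, and 7107 and 6795 at 4 h. They did not follow the library totals, which were largest in DMSO library A and smallest in 4 h library B. What part depth has in the CPM of this region was not tested. Its log2 fold changes, 0.54 at 2 h (SE 0.24, edgeR adjusted p = 0.282) and 0.73 at 4 h (SE 0.25, adjusted p = 0.119), did not pass the threshold. Of all counts in isolated regions it took 5.04% and 7.48% in DMSO, 8.20% and 10.1% at 2 h, and 8.06% and 12.6% at 4 h. Together, the 3 highest regions of the table took 1.77% of the whole library where this share was lowest and 4.17% where it was highest, the same libraries in both cases. With these 3 regions left out, 10 isolated regions fell and 9 rose at 2 h, and 5 fell and 5 rose at 4 h, beside the 11 and 9, and 5 and 4, described later.

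The next 7 members by DMSO level formed a continuous upper end. The highest of them, chr5:107717447-107717847, had 274 ± 21.3 CPM in DMSO (SD, n = 2), 5.58-fold above the isolated median, with 244 ± 7.99 at 2 h and 246 ± 40.1 at 4 h. It was followed by chr17:70117572-70117972 with 250 ± 33.2 CPM, chr14:88237497-88237897 with 235 ± 10.2, chr2:37898521-37898921 with 233 ± 9.87, chr9:74979846-74980246 with 208 ± 34.0, chr2:174829837-174830237 with 203 ± 10.3 and chr2:208031076-208031476 with 179 ± 1.65. None of the 8 highest members was called at either time. The lowest adjusted p among these 7 was 0.394, at chr14:88237497-88237897 at 4 h (log2 fold change -0.31, SE 0.16). At the other end, chr11:50724865-50725265 had 2.16 and 8.21 CPM in DMSO, 11.9 and 9.12 at 2 h, and 6.30 and 23.4 at 4 h. At chr16:32817403-32817803 the values were 5.94 and 6.84, 8.38 and 19.8, and 6.93 and 25.6 CPM. Libraries of the same group thus differed more than 3-fold at 4 h in both, and neither was called. The third lowest, chr12:131781134-131781534, ran from 6.84 to 14.4 CPM over the 6 libraries.

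Treatment with dTAG47 was followed by a small shift of the isolated regions as a group. The level of the fusion protein itself was not measured here. In each library, the median log2 level of isolated regions was set against that of the others. The difference was -0.43 and -0.44 under DMSO, -0.50 and -0.51 at 2 h, and -0.48 and -0.49 at 4 h, so that all 4 treated libraries lay below both DMSO libraries. The mean was -0.44 ± 0.0041 in DMSO (SD, n = 2) and -0.50 ± 0.013 with dTAG47 (SD, n = 4), a difference of -0.058. An exact two-sided permutation test over the libraries gave p = 0.133, the smallest that 4 libraries against 2 can give. The size of the shift depended on the scaling: the median log2 fold change of isolated minus other regions was -0.072 at 2 h and -0.057 at 4 h with TMM, and -0.028 and -0.032 with cyclic loess, which scales by level.

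The share of counts on chromosomes 1 to 22 that fell in isolated regions gave the same picture. It was 5.79% (95% Wilson interval 5.75 to 5.82) and 5.91% (5.87 to 5.95) in DMSO, 5.54% (5.50 to 5.57) and 5.65% (5.62 to 5.69) at 2 h, and 5.65% (5.61 to 5.68) and 5.71% (5.66 to 5.75) at 4 h. The intervals cover counting error only. The treated libraries were lower by 0.211 percentage points on average (exact two-sided permutation p = 0.133, the smallest possible here). Without the 3 highest regions of the table, the shares were 5.60% and 5.61% in DMSO, 5.22% and 5.25% at 2 h, and 5.33% and 5.21% at 4 h, a mean difference of -0.351 points (exact p = 0.133). The difference was larger without these 3 regions, 1 of which is the isolated region on chromosome 6. Among the 341 regions more than 500000 bases from any other, with all regions kept, the share differed by 0.034 points in the other direction (exact p = 0.933). The high region on chromosome 6 is 1 of these 341. With the 3 highest regions left out, a calculation chosen after seeing the data, the 340 that remain had 1.86% and 1.89% in DMSO, 1.71% and 1.76% at 2 h, and 1.77% and 1.72% at 4 h, a mean difference of -0.135 points (exact p = 0.133).

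**Figure D2:**
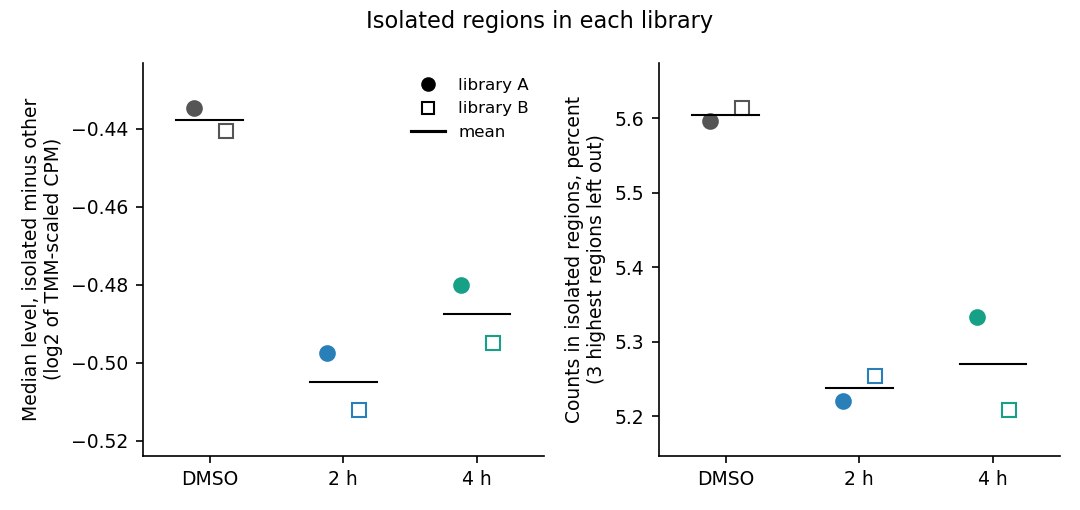
Isolated regions in each library, by group (x axis). Left, the median log2 level of isolated regions minus that of the others; right, the percent of chromosome 1 to 22 counts in isolated regions with the 3 highest regions of the table left out; points are libraries (A filled, B open) and bars the group means. Both panels show the 4 treated libraries below both DMSO libraries, and neither y axis starts at 0.

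After 2 h of dTAG47, 11 isolated regions fell and 9 rose (edgeR quasi-likelihood test across all 12123 regions, Benjamini-Hochberg adjusted p under 0.05). The falls are 1.18% of the isolated regions, beside 0.396% of all regions and 0.34% of the other regions on chromosomes 1 to 22. The rises are 0.963%, beside 2.22% and 2.36%. Rises thus made up 45% of the calls among isolated regions and 87.4% among the others. The median log2 fold change was -0.08 over the isolated regions, -0.01 over the others and -0.01 over all regions, and 62.1% of isolated regions had a negative value against 51.0% of the others. Both 2 h libraries lay below both DMSO libraries at 271 isolated regions, 29.0% against 21.8% of all, and above them at 142, 15.2% against 21.9%. At an unadjusted p under 0.05, 75 isolated regions were lower (8.02%) and 44 higher (4.71%), against 659 (5.44%) and 1076 (8.88%) over the table. No chance test of the difference between isolated and other regions was made, because regions are not replicates of a treatment.

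The balance of falls and rises depended on the distance chosen, on scaling and on single libraries. Of the 2701 regions more than 100000 bases from any other, 17 fell and 29 rose at 2 h. Of the 341 beyond 500000 bases, 5 fell and 6 rose. With total count scaling, 16 isolated regions fell and 5 rose at 2 h, so that rises were 23.8% of the calls, and 69.1% among the other regions. Without 2 h library A, 1 isolated region fell and 4 rose, and without 2 h library B, 4 fell and 3 rose. Without DMSO library A, 10 fell and 4 rose. The 4 h library A enters this comparison only through the spread and the scaling. Without it, the median log2 fold change was -0.08 for isolated and -0.01 for other regions. DESeq2 called 0 falls and 2 rises among isolated regions, and 3 (0.0275%) and 94 (0.863%) among the others. Its unadjusted p was under 0.05 for 26 isolated regions that were lower and 11 that were higher. These counts have no share of the other regions beside them. DESeq2 gave no adjusted p for 770 isolated regions. Cyclic loess with limma-trend called 5 falls and 4 rises, and 21 (0.193%) and 124 (1.14%) among the others. With 2 h library A or B left out, calls became fewer among the others as well, and without DMSO library A rises became fewer there.

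At 4 h the same fit called 5 falls and 4 rises among the isolated regions. The falls are 0.535%, near the 0.487% of all regions and the 0.496% of the other regions, and the rises are 0.428%, beside 1.52% of all and 1.63% of the others. The median log2 fold change was -0.06, against -0.00452 for the other regions, and 61.2% of the values were negative against 50.8%. Both 4 h libraries lay below both DMSO libraries at 256 isolated regions, 27.4% against 20.6% of all, and above them at 123, 13.2% against 20.2% of all and 20.7% of the others. With total count scaling the calls were 6 falls and 3 rises, and the share of rises moved from 44.4% to 33.3%. DESeq2 called 0 and 0, and 5 (0.0459%) and 52 (0.477%) among the others. Its unadjusted p was under 0.05 for 11 isolated regions that were lower and 10 that were higher, again with no share of the others beside them. DESeq2 gave no adjusted p for 679 isolated regions. Over isolated and other regions, the median log2 fold change was -0.07 and 0.01 without 4 h library B. It was -0.08 and 0.01 without DMSO library A, and -0.04 and 0.01 without DMSO library B. Both times were set against the same 2 DMSO libraries and are not independent of each other.

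Between 2 h and 4 h, edgeR called 0 isolated regions and 0 of all 12123, which is 0.0%, and an unadjusted p under 0.05 was found for 10 isolated regions lower at 4 h and 14 higher. There were 0 isolated calls as well from DESeq2, with 0 isolated regions at that unadjusted p, and from limma-voom, with 26. No share of the other regions stands beside these counts. The lowest p for a lower level at 4 h belonged to chr8:128748521-128748921, with 77.5 and 75.3 CPM at 2 h and 61.1 and 51.1 at 4 h (log2 fold change -0.42, SE 0.17, adjusted p = 0.998). The lowest for a higher level was at chr11:19733957-19734357, with 88.7 and 79.8 CPM at 2 h and 108 and 114 at 4 h (0.39, SE 0.15, adjusted p = 0.998). In both, the 2 h and 4 h libraries did not overlap.

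The distance to the nearest region was then split into classes over chromosomes 1 to 22. The share of regions that rose at 2 h was 4.55% up to 2000 bases, 4.54% from there to 10000, 2.24% to 50000 and 1.26% to 250000. Among isolated regions it was 0.505% up to 500000 bases (3 of 594), 2.06% up to 1000000 (5 of 243) and 1.02% beyond (1 of 98). The shares that fell at 2 h were 0.784%, 0.0622%, 0.32% and 0.403% in the first 4 classes, and 1.01%, 1.23% and 2.04% in the 3 classes of isolated regions, which rest on 6, 3 and 2 regions. The median log2 fold change at 2 h went from 0.02 and 0.06 in the 2 closest classes to 0.00149, -0.05, -0.07, -0.08 and -0.14 in the others. At 4 h, the rises went from 4.39% and 3.05% to 1.45% and 0.807%, and to 0, 4 and 0 regions in the classes of isolated regions. The median count fell along the same classes, from 121 counts at 2000 to 10000 bases to 61.4 counts beyond 1000000.

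**Figure D3:**
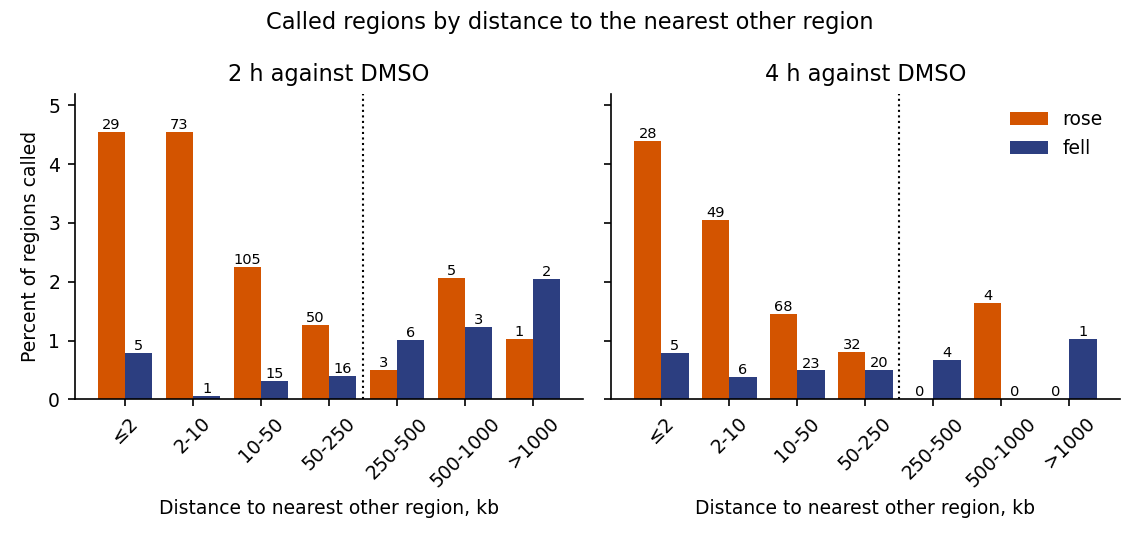
Percent of regions (y axis) that rose (orange) or fell (blue) at 2 h (left) and 4 h (right), by distance to the nearest other region in kb (x axis), with the number of regions above each bar; the dotted line marks the threshold for isolated regions. At 2 h, rises outnumber falls in every class up to 250 kb, by 50 to 16 in the last of these. Falls outnumber rises by 6 to 3 from 250 to 500 kb. Rises outnumber falls by 5 to 3 in the next class, and falls outnumber rises by 2 to 1 in the last.

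Because isolated regions had lower counts, they were also set beside other regions of like count. The median log2 fold change was lowest in the class of lowest counts in both sets. At 2 h it was -0.15 for isolated and -0.13 for other regions under 50 mean counts, -0.07 and -0.04 from 50 to 75, -0.03 and -0.000145 from 75 to 100, -0.05 and 0.00318 from 100 to 150, and 0.00923 and 0.06 at 150 or more. Isolated regions were thus lower by 0.017 to 0.053 within a class at 2 h, and by 0.016 to 0.057 at 4 h, while the difference over all counts was -0.072 and -0.057. At 2 h the difference was smaller within each class than over all counts. The part that counts have in the difference was not tested further. Falls at 2 h were 1.56% of isolated and 0.185% of other regions from 50 to 75 counts (4 and 4 regions), 2.26% and 0.444% from 75 to 100 (4 and 10), and 1.23% and 0.497% from 100 to 150 (2 and 14). Rises were 5.80% and 6.60% at 150 or more (4 and 148), 0.617% and 2.24% from 100 to 150 (1 and 63), 1.69% and 1.38% from 75 to 100 (3 and 31), and 0.391% and 0.555% from 50 to 75 (1 and 12). Isolated regions thus had the higher share of rises in the class from 75 to 100 counts, and the lower in the other 3 of these classes. Over all counts, isolated regions were less precise, with a median standard error at 2 h of 0.194, against 0.166 for other regions. The median absolute log2 difference between the libraries of a group, without regard to sign, was 0.190 for isolated and 0.178 for other regions in DMSO. It was 0.192 and 0.166 at 2 h, and 0.215 and 0.188 at 4 h. Precision was not compared within count classes.

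**Figure D4:**
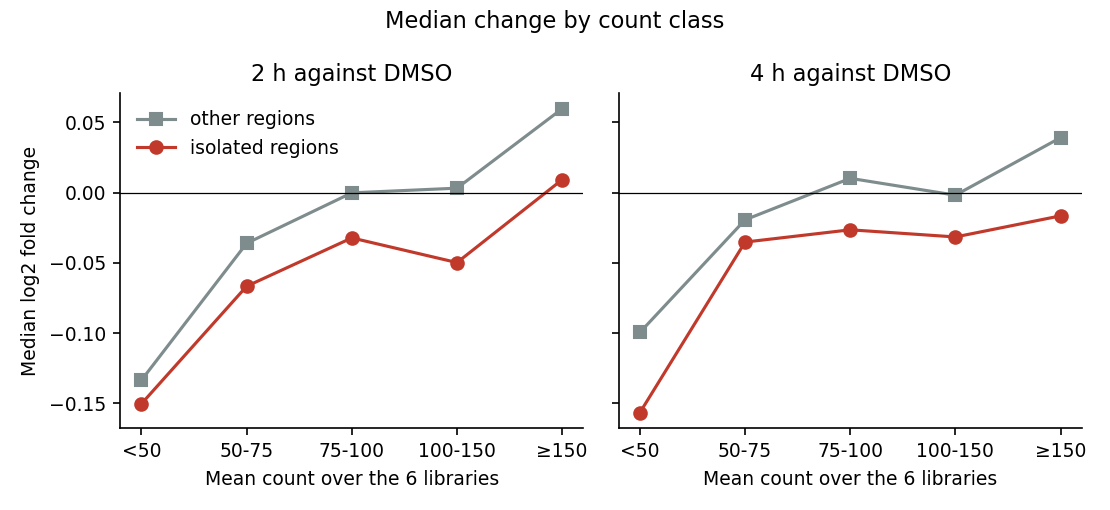
Median log2 fold change (y axis) of isolated (red) and other regions (grey) by mean count over the 6 libraries (x axis), at 2 h (left) and 4 h (right). In each of the 5 classes the isolated regions lie below the others, by 0.017 to 0.053 at 2 h and 0.016 to 0.057 at 4 h.

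In all, 23 isolated regions were called at one time or the other, on 13 chromosomes, and 912 were called at neither. In the fall group of 2 h, all 11 had both 2 h libraries below both DMSO libraries, and log2 fold changes ran from -0.86 to -0.51. The largest fall was at chr2:222437937-222438337, with 49.7 and 60.9 CPM in DMSO, 29.3 and 31.2 at 2 h, and 41.0 and 44.8 at 4 h (log2 fold change at 2 h -0.86, SE 0.21, edgeR adjusted p = 0.0120). The 4 h libraries lay between the other groups, with a log2 fold change of -0.37 (adjusted p = 0.432). At chr10:30024409-30024809 the levels went from 50.7 and 59.5 CPM to 28.6 and 33.4 at 2 h (-0.82, SE 0.21, adjusted p = 0.0158) and were 44.7 and 41.5 at 4 h (-0.33, adjusted p = 0.493). The same order of groups stood at chr9:1051568-1051968, with 63.7 and 64.3 CPM in DMSO, 33.5 and 41.8 at 2 h, and 51.0 and 46.9 at 4 h (-0.77 at 2 h, adjusted p = 0.0125). At chr9:22447082-22447482 the values were 45.9 and 56.1, 32.1 and 25.8, and 38.4 and 30.9 CPM (-0.80 at 2 h, adjusted p = 0.0336), and here the 2 h and 4 h libraries overlapped.

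Among the other falls at 2 h, chr5:107006541-107006941 had 66.4 and 74.6 CPM in DMSO, 37.7 and 46.4 at 2 h, and 52.9 and 40.5 at 4 h (-0.74 at 2 h, SE 0.18, adjusted p = 0.0135). Its neighbours lay 4108512 and 710906 bases away, and the nearer is the second highest isolated region, with a log2 fold change of -0.16. At chr14:48145030-48145430, with no region within 1907804 bases, the 2 h libraries had 50.3 and 49.4 CPM against 85.3 and 68.4 in DMSO (-0.64, adjusted p = 0.0350). The falls at chr10:123357509-123357909 (-0.65, adjusted p = 0.0404), chr12:29936118-29936518 (-0.63, adjusted p = 0.0310) and chr2:159313855-159314255 (-0.63, adjusted p = 0.0131) were not called at 4 h, with -0.36, -0.23 and -0.40. Those at chr15:96875320-96875720 and chr2:182756770-182757170 were called at both times. The first had 131 and 157 CPM in DMSO, 94.96 and 106 at 2 h and 101 and 94.8 at 4 h (-0.51 and -0.54, adjusted p = 0.0414 and 0.0388). The second had 105 and 105 CPM, 65.6 and 82.1, and 73.1 and 62.9 (-0.52 and -0.61, adjusted p = 0.0495 and 0.0229).

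The calls of a fall at 2 h depended on the DMSO and 2 h libraries, and all 11 were kept without either 4 h library. Without 2 h library A, 0 of the 11 falls passed the threshold, with log2 fold changes from -0.97 to -0.36 and adjusted p-values from 0.0713 to 0.539. Without 2 h library B, 4 passed, those at chr12:29936118-29936518, chr2:159313855-159314255, chr5:107006541-107006941 and chr9:1051568-1051968. Without DMSO library A 6 passed, and without DMSO library B 3. The sign was negative in every one of these fits. This is no separate support, since all 11 had both 2 h libraries below both DMSO libraries.

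At 4 h, 3 further regions fell that had not passed at 2 h. The largest fall was at chr12:30263575-30263975, with 40.5 and 62.3 CPM in DMSO, 30.0 and 30.4 at 2 h, and 23.3 and 21.3 at 4 h, so that the 4 h mean was 2.24-fold lower (-1.16 on the log2 scale, SE 0.25, edgeR adjusted p = 0.00452; -0.74 at 2 h, adjusted p = 0.0690). It is 327457 bases from chr12:29936118-29936518, the isolated region named above, and these are the only called isolated regions that are direct neighbours. Of the 46 regions next to a called isolated region, 0 others were called at either time. Calls were few over all regions too, with 0.396% falls and 2.22% rises at 2 h. The count is thus no sign that called isolated regions change alone. At chr15:58766925-58767325 the levels were 35.1 and 45.2 CPM in DMSO, 26.5 and 22.04 at 2 h, and 18.3 and 20.2 at 4 h, 2.08-fold below DMSO (-1.06, SE 0.27, adjusted p = 0.0253). At chr4:66535232-66535632 they were 39.4 and 41.1, 25.1 and 27.4, and 20.8 and 21.3 CPM (-0.93, SE 0.26, adjusted p = 0.0430). In these 3 regions the 4 h libraries lay below both 2 h libraries, and the direct test of 4 h against 2 h gave an adjusted p of 0.998 in each. Without DMSO library B, 1 of the 5 falls at 4 h passed the threshold (lost values from -0.89 to -0.40, adjusted p from 0.115 to 0.212), without 4 h library B 1, without 4 h library A 2 and without DMSO library A 3.

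Of the 9 rises at 2 h, the largest was at chr1:147806524-147806924, with 60.5 and 69.1 CPM in DMSO, 119 and 132 at 2 h, and 112 and 87.4 at 4 h, 1.94-fold above DMSO at 2 h (log2 fold change 0.96, SE 0.15, edgeR adjusted p = 4.08e-05) and 1.57-fold at 4 h (0.65, SE 0.16, adjusted p = 0.0171). The treated libraries did not overlap with DMSO. The second by p-value, chr18:57567078-57567478, had 91.8 and 90.3 CPM in DMSO, 153 and 151 at 2 h, and 158 and 116 at 4 h (0.74 at 2 h, adjusted p = 0.00166; 0.62 at 4 h, adjusted p = 0.0175). Its nearest regions, 760049 and 1994130 bases away, had log2 fold changes of -0.15 and -0.34 at 2 h and were not called. At chr9:69710857-69711257 the DMSO libraries themselves differed, with 26.5 and 42.4 CPM, against 66.3 and 53.2 at 2 h and 51.7 and 75.6 at 4 h (0.83 and 0.86, adjusted p = 0.0186 and 0.0189). The rise at chr7:125203686-125204086, from 42.7 and 44.5 CPM to 65.6 and 71.5 at 2 h and 80.0 and 72.5 at 4 h, was called at both times (0.65 and 0.82, adjusted p = 0.0254 and 0.00349).

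The remaining 5 rises were called at 2 h and not at 4 h. At chr4:10118535-10118935 the levels were 101 and 112 CPM in DMSO, 162 and 173 at 2 h, and 151 and 147 at 4 h (0.66 at 2 h, adjusted p = 0.00386; 0.50 at 4 h, adjusted p = 0.0648). At chr22:33197567-33197967 they were 121 and 97.2, 168 and 173, and 156 and 130 CPM (0.63 at 2 h, adjusted p = 0.00797). The rise at chr12:92539296-92539696 began from the highest DMSO level of the 23, 157 ± 4.80 CPM (SD, n = 2), and reached 233 ± 19.98 CPM (0.57, adjusted p = 0.0154). The rises at chr8:128748521-128748921 (0.61, adjusted p = 0.0308) and chr10:3827679-3828079 (0.56, adjusted p = 0.0384) had 4 h values of 0.19 and 0.25. In the first of these the 4 h libraries, 61.1 and 51.1 CPM, overlapped with the DMSO libraries, 52.4 and 47.2.

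The calls at chr1:147806524-147806924 and chr18:57567078-57567478 at 2 h held under every alternative fit to the counts. They were the only isolated calls of which this was true at either time. Without DMSO library A, 3 of the 9 rises at 2 h and 1 of the 4 at 4 h passed. Without DMSO library B, 7 and 4 did. Leaving out 2 h library A kept 4 of the 9 and leaving out 2 h library B kept 3, while without 4 h library A 1 of the 4 rises at 4 h was kept, and without 4 h library B 3. No isolated call changed sign under any of the alternatives. In every call both treated libraries lay beyond both DMSO libraries, so the kept sign is no separate support.

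**Figure D5:**
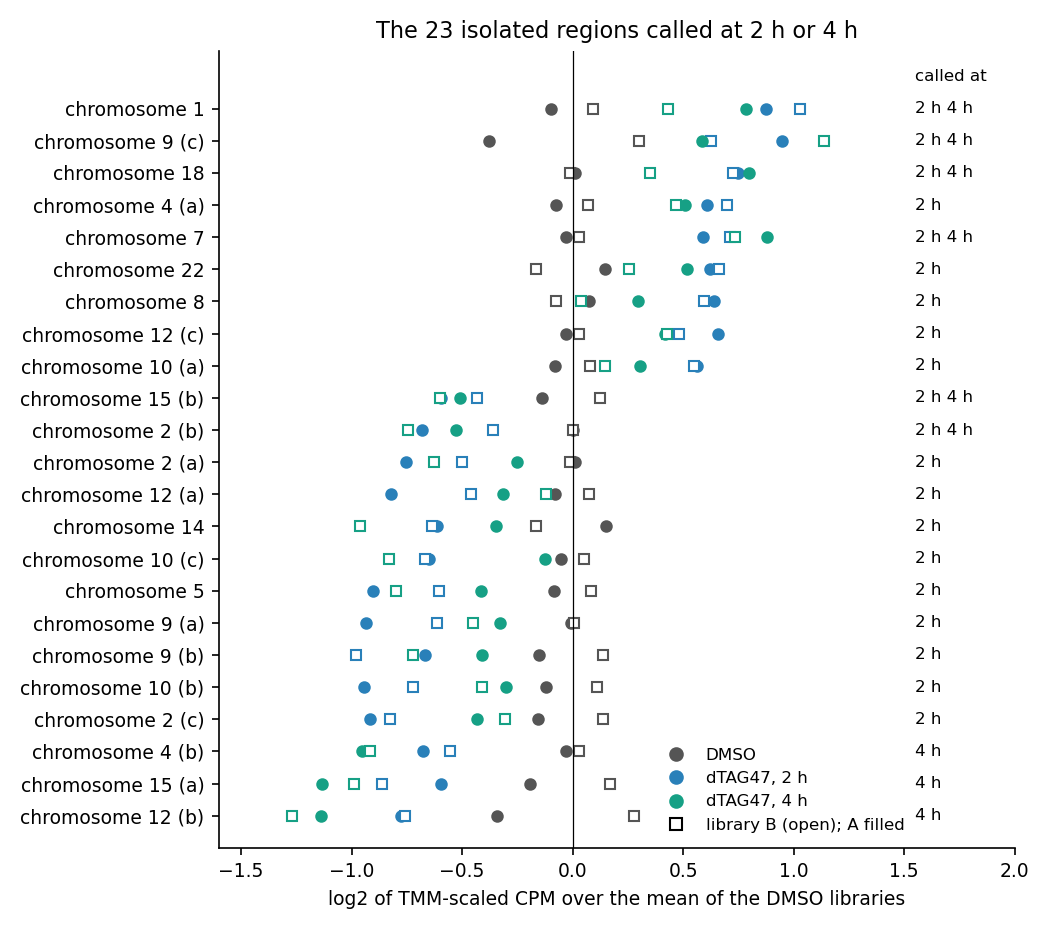
The 23 isolated regions called at 2 h or 4 h, from rises at the top to falls at the bottom, named by chromosome with letters in order of position. The x axis is the log2 of TMM-scaled CPM over the mean of the DMSO libraries, points are libraries (A filled, B open; DMSO grey, 2 h blue, 4 h green), and the right column gives the times at which each was called. In the 9 regions at the top both 2 h libraries lie to the right of both DMSO libraries, and in the 14 below them to the left.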

How the data were processed

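Ser5 Pol II ChIP-seq was described in 6 libraries, 2 in each of 3 groups. What the authors deposited is a table of raw counts for 12123 regions, from 3 to 22091 in size. Among the tools in the submitters' processing notes are Bowtie2, MACS2, DiffBind, DESeq2 and Trimmomatic 0.32, and the builds are hg19 and dm3. Their roles, and the calling and counting of regions, are not given in those sources. The table has no row for fly sequence, so a change shared by all regions would not be seen. Columns carry letters and labels carry numbers, so columns were tied to groups only. The libraries of a group differed by more than sampling noise (chi-square per degree of freedom 2.33, 1.50 and 2.26).

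Counts were tested with edgeR 4.0.16 (quasi-likelihood, TMM, filterByExpr, R 4.3.3), all 6 libraries in 1 fit, with Benjamini-Hochberg adjustment over all regions and calls under 0.05. The standard error is the log2 fold change divided by the square root of F. Regions on X and Y, 296 in all, entered the fit only. The fit was tested on simulated data. Alternatives used DESeq2 1.42.0 and limma 3.58.1, other scalings, filters and distances, and left out each library. Exact permutation tests ran over libraries in Python 3.11.15. Named regions are the called members, the 8 highest and 3 lowest in DMSO, the 3 most distant, those at the edge of the rule, and the lowest p in each direction between the times. The members and lists were chosen with earlier results of these data known. No genome of hg19 was used here, so no sequence is given.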

Additional observations from a re-analysis of the deposited data

How the results depend on the processing

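The numbers in this section are falls and rises of isolated regions, at 2 h (11 and 9) and then at 4 h (5 and 4). DESeq2 gave 0 and 2, then 0 and 0, beside 3 and 94, then 5 and 52, of the other regions. Cyclic loess with limma-trend gave 5 and 4, then 2 falls, beside 21 and 124, then 41 falls, of the other regions. A mean of at least 50 counts, which removes 2 of the called regions, left 3 falls at 4 h. Total count scaling gave 5 rises at 2 h. The share of the 3 highest regions as a covariate gave 18 falls at 2 h. With a replicate block by column letter there were 36 and 19, then 17 and 15, while 191 and 596, then 185 and 512, of the other regions were called. The letters are not tied to the labels' replicate numbers. The differences between libraries A and B correlated between groups with r of 0.22, 0.28 and 0.16 over 11827 regions, which share libraries and are not independent. A distance over 100000 bases (2701 regions) gave 17 and 29, then 15 and 20, and one over 500000 bases (341 regions) 5 and 6, then 1 and 4. At both distances rises outnumbered falls, the reverse of the main rule. These sets differ in size from the 935 regions, so their counts cannot be compared directly. Leaving out 1 library gave 1 to 17 falls and 3 to 10 rises at 2 h, and 1 to 7 and 1 to 8 at 4 h.

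The difference between the median log2 fold changes of isolated and other regions, -0.07 at 2 h and -0.06 at 4 h, stayed negative throughout. It was -0.0280 and -0.0315 with cyclic loess, -0.0588 and -0.0380 with at least 50 counts, -0.0825 and -0.0881 with the covariate, -0.0919 and -0.0435 beyond 500000 bases, and -0.0937 to -0.0558 and -0.0890 to -0.0462 with 1 library left out. The share of counts, -0.211 points with dTAG47, was -0.351 without the 3 highest regions, -0.296 beyond 100000 bases and 0.034 beyond 500000 bases (-0.800 and -0.135 without the 3 highest regions, added after seeing the data), and -0.271 to -0.152 with 1 library left out. Except where the construction shows it, the cause was not tested. Of the alternative values for the called regions, 291 kept the call, 77 lost it and 12 had no adjusted p at 2 h. At 4 h these were 131, 33 and 5. Some settings could hardly lose a call. The filter on low counts removed 0 regions, so leaving it out repeated the main fit. A library of the time not compared enters only through the spread and the scaling. The tallies thus do not measure how firm the calls are. Shallow depth limits the isolated regions, whose median was 44 counts in 4 h library B.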

Other observations

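Library B exceeded library A by at least 1.5-fold in every group at 2 isolated regions. This pattern was looked for after the values had been seen, and both regions had low raw counts, from 12 to 39. At chr1:143283163-143283563 library B was higher than library A in each group, with 10.8 and 21.9 CPM in DMSO, 8.38 and 19.8 at 2 h, and 10.7 and 18.1 at 4 h. At chr1:143542659-143543059 the values were 16.7 and 26.7, 10.5 and 22.04, and 17.0 and 27.7 CPM. These 2 were the only such isolated regions, 0.214% of them, a share near that of the other regions (16, or 0.147%). The reverse, library A above library B by that much in every group, was found at 0 isolated and 0 other regions. Neither of the 2 was called at 2 h or 4 h.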
